A study of Mus musculus with 7 samples.

Results

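The genes described here drive DNA replication and cell division, and 43 of them were chosen by name from the 21892 genes listed for a mouse tumor series. The set holds 26 genes of mitosis, 12 of DNA replication and 5 regulators of the passage from G1 into S phase (Ccnd1, Ccne1, Ccne2, E2f1 and Cdkn1a). No measured value entered the rule, although the set was proposed with earlier results of these data known. All 43 were found, they lie on 17 chromosomes, and all had a mean of at least 1 TPM over the 7 libraries, as did 13997 genes in all.

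The tumors carried an Egfr exon 19 deletion, grew subcutaneously through passages in C57BL/6 mice, and are labelled lung tumor. Vehicle alone was given to the first group, taken at day 3, and 2 groups received gefitinib, a kinase inhibitor of EGFR, for 3 or 14 days. In the other 4 groups gefitinib was given for 14 days and then replaced for 7 days, to day 21, by vehicle, by DC101, an antibody against the vascular receptor VEGFR2, by 4H2, an antibody against the immune checkpoint receptor PD-1, or by DC101 and 4H2 together. For both vehicle groups the sample title names vehicle while the treatment field records no treatment. These 7 groups are called below the day 3 vehicle, day 3 gefitinib, day 14 gefitinib, switched-to-vehicle, DC101, 4H2 and combination libraries. Each group is 1 library, and how many animals it holds is not given. No difference below therefore has a replicate check, an error or a p-value, and each one compares 2 libraries rather than 2 treatments. There was also no group that stayed on vehicle to day 14 or 21, or on gefitinib to day 21, so that time and treatment cannot be told apart in comparisons across days.

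A cell that divides first passes from G1 into S phase. D-type cyclins with Cdk4 or Cdk6, and then E-type cyclins with Cdk2, phosphorylate the retinoblastoma protein and release E2F factors, which switch on the genes of DNA replication. The Mcm2 to Mcm7 helicase, loaded onto origins with the help of Cdc6, then unwinds the DNA, and the sliding clamp Pcna holds the polymerases on it. Most mitosis genes are switched on later, in G2, through CHR elements and CCAAT boxes in their promoters, and their products condense, attach and separate the chromosomes. In tumor tissue these transcripts mark cycling cells, whether cancer, immune or stromal.

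The promoters of the members are shown first, because the mitosis and replication genes differ in them independently of any value measured here. The RefSeq promoter table of build GRCm38.p6 spans 250 bases before to 50 bases after each listed start and held 35 of the 43 members. It was searched on both strands for the CHR (TTTGAA), the CCAAT box (CCAAT) and 4 E2F words (TTTCCCGC, TTTCGCGC, TTTGCCGC and TTTGGCGC). In the 3 mitosis promoters below, all read 5′ to 3′ and ending at the base before the start, capitals mark each CHR or CCAAT match in either orientation.
Kif11, chr19:37376292-37376381, plus strand: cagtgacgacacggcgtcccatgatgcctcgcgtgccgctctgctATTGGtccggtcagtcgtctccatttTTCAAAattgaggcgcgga
Top2a, chr11:99024190-99024279, minus strand: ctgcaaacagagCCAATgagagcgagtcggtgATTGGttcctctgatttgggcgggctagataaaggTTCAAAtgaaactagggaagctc
Mki67, chr7:135716380-135716574, minus strand: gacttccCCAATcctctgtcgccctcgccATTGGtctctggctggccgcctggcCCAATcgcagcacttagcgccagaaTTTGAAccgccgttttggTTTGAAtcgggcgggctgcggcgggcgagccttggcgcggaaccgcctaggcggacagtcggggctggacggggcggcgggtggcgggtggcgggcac
Kif11, a spindle motor, and Top2a, the topoisomerase that untangles sister chromatids, each hold a CHR close to the start and at least 1 CCAAT box upstream of it. Mki67, which coats mitotic chromosomes, holds 2 CHR matches and 3 CCAAT boxes farther from its start. In the 3 replication promoters below, capitals mark E2F words and CCAAT boxes, and overlapping E2F matches on both strands run together.
Mcm5, chr8:75109339-75109508, plus strand: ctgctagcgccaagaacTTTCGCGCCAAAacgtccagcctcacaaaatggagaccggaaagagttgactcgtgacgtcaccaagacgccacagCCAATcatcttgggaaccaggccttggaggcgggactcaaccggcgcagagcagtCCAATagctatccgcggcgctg
Mcm6, chr1:128359706-128359825, minus strand: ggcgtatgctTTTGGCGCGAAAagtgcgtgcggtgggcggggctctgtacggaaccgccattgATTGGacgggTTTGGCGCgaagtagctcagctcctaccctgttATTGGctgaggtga
Cdc6, chr11:98908001-98908150, plus strand: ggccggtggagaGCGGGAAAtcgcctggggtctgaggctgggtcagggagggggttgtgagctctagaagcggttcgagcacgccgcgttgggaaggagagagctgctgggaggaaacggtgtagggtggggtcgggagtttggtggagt
Mcm5 and Mcm6 encode helicase subunits, and each held a pair of overlapping E2F words, with another E2F word nearer the start in Mcm6. Cdc6, which loads the helicase, held a single E2F word and no CCAAT box.

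A CHR was found in 17 of the 22 mitosis members with a listed promoter (77.3%), in 2 of the 10 replication members (20%; Mcm2 and Cdc45), and in 20.2% of the 27025 genes in the table. Within 50 bases of the start it was held by 15 mitosis members (68.2%) and by 5.72% of all genes. The E2F words had the reverse distribution: 5 of the 10 replication members held 1 (50%; Mcm3, Mcm5, Mcm6, Mcm7 and Cdc6), against 1 of 22 mitosis members (4.55%; Cdk1) and 2.61% of all genes. CCAAT boxes were common to both classes, in 19 mitosis members (86.4%) and 8 replication members (80%), against 41.1% of all genes. A CHR together with a CCAAT box was found in 16 of 22 mitosis members (72.7%), 2 of 10 replication members (20%) and 8.97% of all genes. None of the 3 regulators with a listed promoter held any of these words. In wider lists the same words were counted for 45 other mitosis genes, of which 27 held a CHR (60%) and 5 an E2F word (11.1%), and for 26 other replication genes, of which 5 held a CHR (19.2%) and 9 an E2F word (34.6%). Of 19 other G1 and S regulators 8 held an E2F word (42.1%) and 7 a CHR (36.8%), so these words were not limited to one class. A match describes the letters in this window and not a bound factor, and its absence says nothing of the factor.

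**Figure D1:**
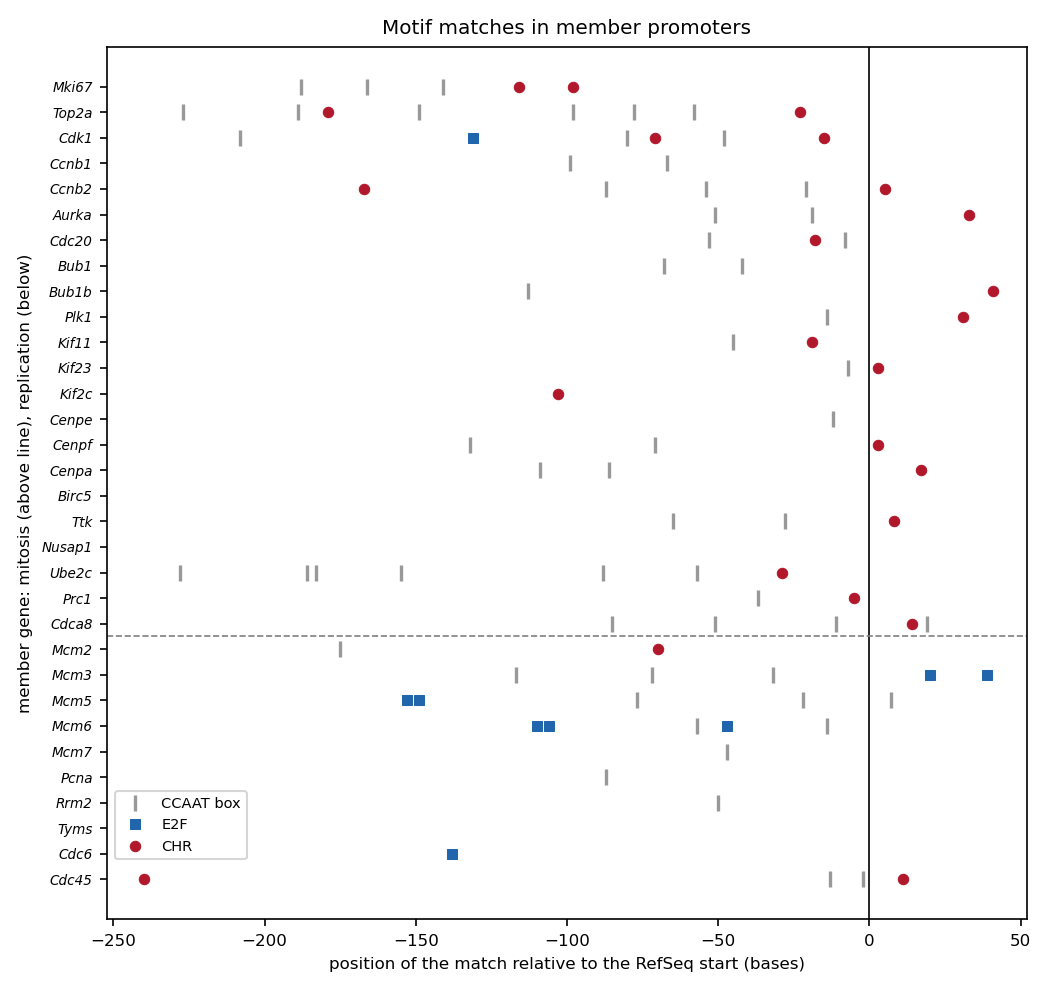
Position of each CHR (red circle), CCAAT box (grey bar) and E2F word (blue square) relative to the RefSeq start, in bases, for the 22 mitosis members (above the dashed line) and 10 replication members (below) of the promoter table. One listed promoter is drawn per gene, so the E2F words of Mcm7, which lie in another listed promoter, are not shown. The red circles of the mitosis members gather near the start, and the blue squares lie below the line except that of Cdk1.

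Across the 7 libraries the mitosis and replication members had 1 shared order at its ends. All 26 mitosis and all 12 replication members were highest in the day 3 vehicle library, and all of them were lowest in the 4H2 library. With each member's TPM in the day 3 vehicle library set to 100%, the median mitosis member stood at 20.5% and 17.2% after 3 and 14 days of gefitinib, 65.2% after the switch to vehicle, 59.2% after DC101, 6.34% after 4H2 and 16.3% after the combination. The median replication member stood at 29.5%, 27.3%, 71.4%, 72.4%, 14.3% and 25.3% in the same libraries. In bulk tumor RNA, fewer cycling cells and less of these transcripts in each cell cannot be told apart. Of the 5 regulators, E2f1 shared this order. Cdkn1a was highest in the 4H2 library, Ccnd1 and Ccne1 were highest after the switch to vehicle, and Ccne2 was highest after DC101 and lowest on day 14 of gefitinib and after the combination.

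**Figure D2:**
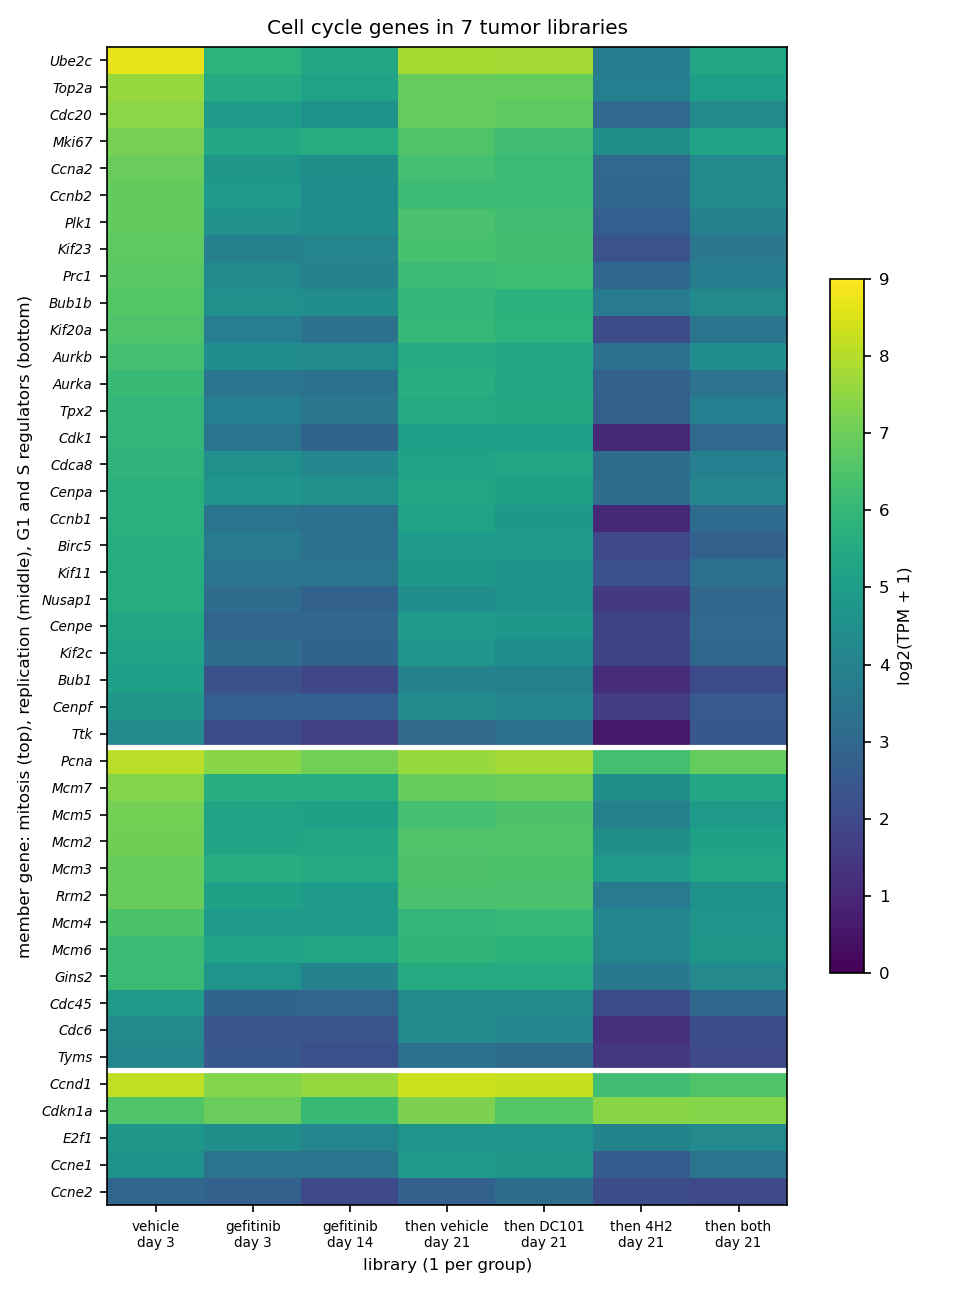
Level of each of the 43 members, as log2(TPM + 1), in the 7 libraries, with mitosis members at the top, replication members in the middle and G1 and S regulators at the bottom, each class ordered by its level in the day 3 vehicle library. The 4H2 column is the darkest for every mitosis and replication member, while Cdkn1a has its highest level there.

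The labelled tissue and the other cells in it were checked with marker genes. The lung epithelial regulator Nkx2-1 reached 391.6 TPM in the day 3 vehicle library, with 122.3 to 238.3 TPM in the gefitinib, switched-to-vehicle and DC101 libraries, but at 1.1 TPM in the 4H2 and 14.0 TPM in the combination library. The sum of 14 epithelial markers lay between 1390.2 and 8474.2 TPM in the first 5 libraries and at 55.7 and 447.1 TPM in these last 2. In the same 2 libraries 10 skeletal muscle markers summed to 67697.4 and 65556.6 TPM, against 268.1 TPM in the day 3 vehicle and 14065.8 TPM in the DC101 library. The other sums ranged from 23.9 to 841 TPM for 12 T and NK cell markers, from 16.6 to 432.1 TPM for 6 B and plasma cell markers, from 2160.8 to 20124.5 TPM for 9 macrophage markers, from 2316.7 to 23388.2 TPM for 8 fibroblast markers, from 88.1 to 338.2 TPM for 6 endothelial markers and from 41.4 to 602.9 TPM for 5 adipocyte markers. For each of these 6 lists and for the muscle list the lowest sum was that of the day 3 vehicle library. The 7 skin and hair keratinocyte markers summed to 1.6 to 446 TPM, with Krt1 listed at 0 in 6 libraries. No marker of the other lists was listed at 0 in any library.

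Among the genes that start mitosis, Cdk1, the mitotic kinase, stood at 60.2 TPM with vehicle at day 3, 10.4 and 6.5 TPM after 3 and 14 days of gefitinib, 32.9 TPM after the switch to vehicle, 32.1 TPM after DC101, 1.0 TPM after 4H2 and 7.4 TPM after the combination. Its partner Ccnb1, cyclin B1, was at 51.7, 10, 8.7, 35.7, 26.8, 1.0 and 7.9 TPM in this order of libraries. Both were thus near 1 TPM in a single library, that treated with 4H2 alone. Ccnb2, cyclin B2, was at 114.2, 28.5, 19.8, 70.9, 69.4, 7.3 and 19.3 TPM. Ccnb1 stood at 0.453 of Ccnb2 in the day 3 vehicle library and at 0.137 in the 4H2 library, and at 0.351 to 0.504 in the other 5. Pseudogenes of Ccnb1 and Ccnb2 are annotated, and how shared reads were handled is not given in these sources, so these values are uncertain.

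Ccna2, cyclin A2, which acts in S phase and G2, had 121.0 TPM in the day 3 vehicle library, 26 and 20.9 TPM on gefitinib, 79.3 TPM after the switch to vehicle, 70.1 TPM after DC101, 7.5 TPM after 4H2 and 18.6 TPM after the combination. Aurka, the kinase of the spindle poles, was at 67.6, 10.6, 9.2, 47.6, 39.7, 5.9 and 9.7 TPM in that order, and Plk1, another kinase of mitotic entry, was at 113.8, 22.6, 19.6, 84.6, 74.2, 5.4 and 14.0 TPM. For all 3 genes the gefitinib and combination libraries lay together, far under the switched-to-vehicle and DC101 libraries. The proliferation marker Mki67 was at 142.2, 42.0, 47.0, 90.3, 74.3, 21 and 37.3 TPM. Its range was narrower than that of Cdk1: Mki67 stood at 2.36 times Cdk1 in the day 3 vehicle library, at 7.23 times on day 14 of gefitinib and at 21 times after 4H2. Top2a was at 195.5, 45.0, 35.8, 115.4, 116.8, 13.8 and 32.9 TPM.

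The spindle checkpoint holds chromosome separation until every kinetochore is attached, and the anaphase-promoting complex then ends it. Ube2c, the ubiquitin-conjugating enzyme of that complex, had the highest level of all members in the day 3 vehicle library, 406.0 TPM, and was at 56.1 and 39.8 TPM on gefitinib, 228.1 TPM after the switch to vehicle, 217.9 TPM after DC101, 13.1 TPM after 4H2 and 40.8 TPM after the combination. Cdc20, its activator, was at 172.0, 30.1, 23, 114.9, 107.3, 7.5 and 18.1 TPM. Bub1, a checkpoint kinase, was at 32.8, 3.7, 2.8, 15.1, 14.4, 1.2 and 3.1 TPM, which made it the mitosis member with the smallest share of its vehicle level on both days of gefitinib (11.3% and 8.54%). The related Bub1b ranged from 11.8 to 98.7 TPM, and the checkpoint kinase Ttk from 0.5 to 18.4 TPM.

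Of the kinetochore and chromosomal passenger genes, Aurkb, the kinase that corrects faulty attachments, stood at 80.2 TPM with vehicle at day 3, 20.3 and 18.3 TPM on gefitinib, 45.6 TPM after the switch to vehicle, 40.2 TPM after DC101, 9.5 TPM after 4H2 and 20.4 TPM after the combination. Birc5, survivin, of the same complex, was at 49.4, 12.1, 9.4, 30.2, 29.7, 3.0 and 5.9 TPM. The passenger gene Cdca8 ranged from 8.0 to 56.5 TPM, and the kinetochore genes Cenpe and Cenpf from 2.6 to 41.4 TPM and from 2.1 to 26.1 TPM. Cenpa, the histone H3 variant of centromeres, was at 51.8, 24.9, 21.7, 39.4, 33.3, 8.3 and 15.9 TPM. It kept the largest share of its vehicle level of all mitosis members on gefitinib (48.1% and 41.9%), after 4H2 (16.0%) and after the combination (30.7%).

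The spindle and cytokinesis genes followed the same order. Kif11 was at 47.0, 10, 10.2, 26.7, 23.8, 3.8 and 8.9 TPM from the day 3 vehicle to the combination library. The cytokinesis motors Kif20a and Kif23 ranged from 3.2 to 91.3 TPM and from 3.9 to 109.1 TPM, and the midzone protein Prc1 from 7.2 to 101.8 TPM. The microtubule depolymerase Kif2c ranged from 2.6 to 35.2 TPM, and the spindle assembly factors Tpx2 and Nusap1 from 5.6 to 61.8 TPM and from 1.9 to 46.3 TPM. Each of these 7 minima was in the 4H2 library.

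Among the replication genes, the helicase subunit Mcm2 stood at 130.0 TPM with vehicle at day 3, 37.3 and 40.5 TPM on gefitinib, 91.7 TPM after the switch to vehicle, 94.0 TPM after DC101, 21.5 TPM after 4H2 and 34.9 TPM after the combination. Mcm5 was at 138.2, 36.8, 34.5, 78.4, 87.8, 14.4 and 29.0 TPM, and Mcm7 at 164.0, 48.6, 46.8, 117.8, 125.4, 20.9 and 39.8 TPM. Mcm3 ranged from 28.2 to 118.6 TPM, Mcm4 from 17.3 to 86.3 TPM and Mcm6 from 15.9 to 71.1 TPM. The subunits act in equal numbers in the hexamer, but each one's share of the summed level of the 6 genes differed between libraries. Mcm5 made up 19.5% of that sum in the day 3 vehicle library and 12.2% in the 4H2 library. Mcm3 made up 16.7% and 23.9% in the same 2 libraries, and Mcm6 went from 10% in the day 3 vehicle library to 16.8% on day 14 of gefitinib.

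Pcna, the sliding clamp, had the highest level of the replication members in every library, with 269.7 TPM in the day 3 vehicle library, 166.9 and 133.5 TPM on gefitinib, 195.3 TPM after the switch to vehicle, 221.4 TPM after DC101, 77.5 TPM after 4H2 and 116.4 TPM after the combination. Its share of the vehicle level was the largest of the 12 on day 3 of gefitinib (61.9%), after 4H2 (28.7%) and after the combination (43.2%). Pcna also acts in DNA repair, and its pseudogenes, like those of Tyms, leave its level uncertain. The nucleotide-supply genes were lower. Rrm2, a subunit of ribonucleotide reductase, was at 117.9, 34.6, 30.7, 85.1, 84.3, 12.1 and 23.8 TPM, and Tyms, thymidylate synthase, at 16.1, 4.5, 3.6, 8.8, 8.1, 1.7 and 3.0 TPM.

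Of the genes that load and start the helicase, Cdc6 stood at 19.0 TPM with vehicle at day 3, 4.0 and 4.2 TPM on gefitinib, 18.9 TPM after the switch to vehicle, 17.2 TPM after DC101, 1.3 TPM after 4H2 and 3.5 TPM after the combination. It was the replication member that came closest to its vehicle level after the switch (99.5%) and kept the smallest share of it after 4H2 (6.84%). Cdc45 was at 29.3, 6.4, 6.7, 18.7, 18.1, 3.3 and 7.3 TPM. Gins2, of the complex that joins Cdc45 to the helicase, was at 70.1, 24.5, 15.1, 45.2, 45.5, 11.1 and 18.0 TPM, so that it was lower on day 14 than on day 3 of gefitinib, where Cdc45 and Cdc6 were nearly level.

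Among the regulators, Ccne2, E2f1 and Cdkn1a had a smaller ratio of highest to lowest TPM than any mitosis or replication member. Ccnd1 and Ccne1 did not. Ccnd1, cyclin D1, a target of growth factor signalling, stood at 280.0 TPM with vehicle at day 3, 159.2 and 188.5 TPM on gefitinib, 316.6 TPM after the switch to vehicle, 295.0 TPM after DC101, 75.0 TPM after 4H2 and 90.6 TPM after the combination. Ccne1, cyclin E1, was at 23.8, 10, 9.9, 27.4, 26.2, 5.2 and 10 TPM, and so was above its day 3 vehicle level in the switched-to-vehicle and DC101 libraries, as Ccnd1 was. Ccne2, cyclin E2, stayed low throughout, at 6.9, 5.9, 3.0, 5.9, 8.5, 3.4 and 3.0 TPM. E2f1, a factor that switches on replication genes, was at 26.1, 20.7, 16.3, 24.1, 24.3, 15.5 and 17.8 TPM, a narrow range beside that of the Mcm genes. Cdkn1a, p21, an inhibitor of cyclin-dependent kinases, was at 93.6, 122.2, 66.4, 147.6, 98.5, 167.6 and 164.8 TPM. Its 2 highest libraries were the 2 treated with 4H2, little above the switched-to-vehicle library, and its lowest was day 14 of gefitinib. The 4H2 and combination libraries had skeletal muscle sums of 67697.4 and 65556.6 TPM, and the part of that tissue in the Cdkn1a level was not tested.

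**Figure D3:**
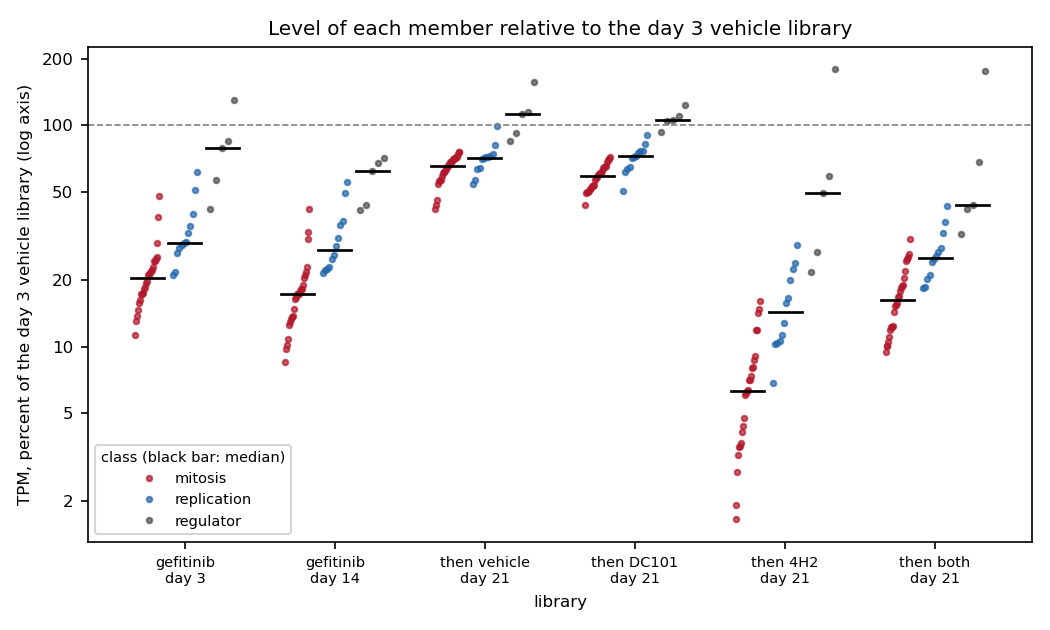
TPM of each member as a percentage of its TPM in the day 3 vehicle library (log axis, dashed line at 100%), for the 6 other libraries, with 26 mitosis members in red, 12 replication members in blue and 5 regulators in grey, and a black bar at each class median. The red median lies under the blue one in all 6 libraries, with the widest gap after 4H2 (6.34% and 14.3%).

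The first comparison asked what 3 days of gefitinib left of the cycle genes. Differences are given as log2 of the ratio of TPM + 1, and a gene is counted as changed at a 2-fold difference or more on that scale. Between the day 3 gefitinib and day 3 vehicle libraries, 37 of the 43 members were at least 2-fold lower and none at least 2-fold higher, beside 14.4% of all 13997 genes lower and 20.8% higher. These 37 were all 26 mitosis members, 10 of 12 replication members and 1 of 5 regulators, Ccne1. The median difference was -2.19 for mitosis, -1.69 for replication, -0.32 for regulators and -0.09 for all genes. Kif23 and Bub1 had the largest differences of the members, each at -2.85, and Ube2c was at -2.83. The members under 2-fold were Mcm6 (-0.94), Ccnd1 (-0.81), Pcna (-0.69), E2f1 (-0.32), Ccne2 (-0.20) and Cdkn1a (0.38). Beside this, the epithelial sum was 4489.4 TPM in the vehicle and 1390.2 TPM in the gefitinib library, the macrophage sum 2160.8 and 19036.3 TPM and the fibroblast sum 2316.7 and 23388.2 TPM. Their part in the result was not tested.

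The wider mitosis and replication lists lay on the same side, but for Pttg1, and the wider regulators did not. At least 2-fold lower were 28 of 33 other replication genes (median -1.46), led by the chromatin assembly subunit Chaf1b (9.4 against 48.2 TPM) and the polymerase subunit Pole (6.3 against 31.4 TPM). Among those with at least 10 TPM in either library, the single-strand binding protein Rpa1 (46.5 against 75.0 TPM) and the clamp loader subunit Rfc2 (60.1 against 91.3 TPM) differed least. Of 51 other mitosis genes 48 were lower (median -1.96), with Ckap2 at 5.3 against 43.8 TPM and the Cdk subunit Cks1b at 50.6 against 330.9 TPM, and none was 2-fold higher. The condensin subunit Smc4, at 33.2 against 57.0 TPM, and the securin gene Pttg1, at 16.2 against 13.9 TPM, were the highest of that list. The 23 other G1 and S regulators were divided, with 8 lower, 5 higher and a median of -0.01, beside 14.4% of all genes lower and 20.8% higher. Cdk4 was at 248.1 against 786.6 TPM and E2f8 at 12.2 against 37.2 TPM, whereas Ccnd2 was at 60.1 against 9.7 TPM and Cdk6 at 21 against 3.3 TPM. Rb1, Cdkn2a and Cdkn2b were the other 3 higher ones. Of 12 p53 response genes 2 were lower, Gadd45a (26.7 against 69.4 TPM) and Trp53 itself (109.1 against 236.8 TPM), and none was higher, with Ccng1 at 87.2 against 77.6 TPM and Phlda3 at 78.8 against 63.3 TPM. The 5 higher regulators and the 2 lower p53 response genes lie near the shares of all genes.

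The balance among the D-type cyclins and between their kinases also differed between libraries. Ccnd1 made up 77.4% of the summed TPM of Ccnd1, Ccnd2 and Ccnd3 in the day 3 vehicle library, 43.7% and 50.1% on gefitinib, 72.7% in both the switched-to-vehicle and the DC101 library, 31.2% after 4H2 and 36.3% after the combination. The summed D cyclin level itself was 361.7 and 364 TPM in the day 3 vehicle and gefitinib libraries. Cdk4 stood at 238 times the level of Cdk6 in the day 3 vehicle library, 11.8 and 7.29 times on gefitinib, 34.4 times after the switch, 40.5 times after DC101, and 7.46 and 7.68 times in the libraries with 4H2. Ccnd1 was thus the most abundant D cyclin in every library but that treated with 4H2, where Ccnd3 made up 40.9%, and Cdk4 was above Cdk6 in all 7. The cells differed as well: in the day 3 vehicle and day 3 gefitinib libraries the macrophage sum was 2160.8 and 19036.3 TPM. The T and NK cell sum was 23.9 and 322.3 TPM. Which cells carried these cyclin and kinase transcripts was not tested.

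By day 14 of gefitinib, 38 members were at least 2-fold lower than in the day 3 vehicle library, which serves as the reference in both gefitinib comparisons, beside 12.7% of all genes lower and 22.7% higher. They were all 26 mitosis members, 11 replication members and Ccne1, with medians of -2.46 for mitosis, -1.84 for replication and -0.65 for regulators, and 0.03 for all genes. Ube2c (-3.32), Kif20a (-3.16), Bub1 (-3.15) and Cdk1 (-3.03) had the largest differences. Between the day 14 and day 3 gefitinib libraries no member differed by 2-fold, beside 2.73% of all genes lower and 4.93% higher. The median was -0.30 for mitosis members, -0.07 for replication members and 0.11 for all genes. On day 14, 21 of 26 mitosis members were lower by any amount, beside 5180 of all 13997 genes. Gins2 (-0.66), Cdk1 (-0.60) and Cdkn1a (-0.87) had the lowest values in their classes. Of the wider lists, 1 mitosis gene, the kinetochore gene Cenpw, was 2-fold higher on day 14 (1.8 against 0.4 TPM), and 1 regulator, Cdkn1c, 2-fold lower (15.2 against 36.7 TPM). The T and NK cell sum was 322.3 TPM on day 3 and 841 TPM on day 14, and the B and plasma cell sum 29.2 and 432.1 TPM. What these cells added to the cycle transcripts was not tested.

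The second question was how far the genes came back once gefitinib was replaced by vehicle for 7 days. In the switched-to-vehicle library 34 members were at least 2-fold higher than on day 14 of gefitinib, and none lower, beside 7.62% of all genes higher and 7.89% lower. They were 24 mitosis members, 8 replication members, Ccne1 and Cdkn1a. The medians were 1.84 for mitosis, 1.16 for replication, 0.79 for regulators and -0.01 for all genes. Kif20a (9.3 and 62.5 TPM) and Ube2c (39.8 and 228.1 TPM) had the largest differences, 2.62 and 2.49. Of the 9 members under 2-fold, Mki67 (0.93) and Cenpa (0.83) were the mitosis genes. The wider lists had 44 of 51 mitosis genes, 13 of 33 replication genes, 4 of 23 regulators and 1 of 12 p53 response genes at least 2-fold higher. Among the most different were Ect2, which positions the cleavage furrow (26.1 against 5.3 TPM), and Fbxo5, an inhibitor of the anaphase-promoting complex (17.3 against 5.2 TPM). The other 3 higher regulators were Cdk4, E2f8 and Wee1, and the p53 response gene was Bbc3 (42.8 against 19.8 TPM), while Ccnd2 was at 33.3 against 75.4 TPM. The epithelial sum was 2329.2 and 8474.2 TPM in the same 2 libraries, and its part in the result was not tested.

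Against the day 3 vehicle library, the switched-to-vehicle library had all mitosis and all replication members lower by any amount, beside 6449 of all 13997 genes. At least 2-fold lower were 3 of the 43 members, beside 3.11% of all genes lower and 15.3% higher. These were Ttk (-1.16), Nusap1 (-1.15) and Bub1 (-1.07), all of mitosis. The medians were -0.61 for mitosis and -0.48 for replication members and 0.04 for all genes. Ccne1 (0.20), Ccnd1 (0.18) and Cdkn1a (0.65) were the members above their day 3 vehicle level. The count depends on the threshold, since at 1.5-fold 18 members were lower. The share of all genes at 1.5-fold was not computed.

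The third set of comparisons set each antibody given after gefitinib against vehicle given after gefitinib, so that the switched-to-vehicle library is shared by all of them. With DC101 alone no member differed by 2-fold, beside 1.11% of all genes lower and 3.12% higher. The medians were -0.11 for mitosis, -0.00 for replication, -0.06 for regulators and -0.05 for all genes. The members ranged from -0.58 for Cdkn1a and -0.40 for Ccnb1 to 0.23 for Ttk and 0.46 for Ccne2. Outside the members, 1 regulator was 2-fold lower, the Cdk4 inhibitor Cdkn2b (7.1 against 18.0 TPM), and 1 higher, the Cdk inhibitor Cdkn1c (26.6 against 10.5 TPM). No gene of the wider mitosis, replication and p53 lists reached 2-fold. The epithelial sum was 8474.2 TPM in the switched-to-vehicle and 5664.1 TPM in the DC101 library, and the skeletal muscle sum 2622.3 and 14065.8 TPM, and their part in these values was not tested.

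With 4H2 alone 40 of the 43 members were at least 2-fold lower than in the switched-to-vehicle library and none at least 2-fold higher, beside 20% of all genes lower and 10.9% higher. These were all 26 mitosis members, all 12 replication members, Ccne1 and Ccnd1. The medians were -2.92 for mitosis, -1.99 for replication, -0.65 for regulators and -0.21 for all genes. Ccnb1 (-4.20), Kif23 (-4.09), Cdk1 (-4.08) and Ube2c (-4.02) had the largest differences, and in plain TPM Ccnb1 was 35.7-fold and Cdk1 32.9-fold lower. The replication gene with the largest difference was Cdc6 (-3.11) and the one with the smallest was Pcna (-1.32). E2f1 (-0.61), Ccne2 (-0.65) and Cdkn1a (0.18) were under 2-fold. Cdkn1a stood at 5.39 times the level of Ccne1 in the switched-to-vehicle library and at 32.2 times in the 4H2 library. Beside this, the epithelial sum was 8474.2 and 55.7 TPM and the skeletal muscle sum 2622.3 and 67697.4 TPM, and the part of that shift in the lower cycle genes was not tested.

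The wider lists had 48 of 51 mitosis genes and 24 of 33 replication genes at least 2-fold lower after 4H2. The spindle gene Hmmr was at 0.5 against 15.0 TPM and Cks2 at 3.4 against 43.9 TPM, while Rpa1 was at 71.2 against 65.5 TPM. Pttg1 was the mitosis gene that went the other way, at 35.5 against 13.7 TPM. Of the other regulators 10 were lower, among them Fbxo5 (2.5 against 17.3 TPM) and Wee1 (11.1 against 47.9 TPM), and 2 higher, Cdkn1c (42.1 against 10.5 TPM) and Rb1, the retinoblastoma gene (22.7 against 9.6 TPM). Of 12 p53 response genes 5 were lower, namely Sesn2 (15.4 against 43.7 TPM), Trp53 (64.7 against 177.9 TPM), Bax, Bbc3 and Zmat3, and 2 higher, Ccng1 (330.7 against 112.9 TPM) and Phlda3 (199.8 against 90.3 TPM). The counts of higher regulators and higher p53 response genes are not far from the share of all genes. The skeletal muscle sum was 67697.4 against 2622.3 TPM, and its part in these values was not tested.

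After the combination 38 members were at least 2-fold lower than in the switched-to-vehicle library, beside 17.0% of all genes lower and 11.7% higher. These were 25 mitosis members, 11 replication members, Ccnd1 and Ccne1, with medians of -1.85 for mitosis, -1.30 for replication, -0.79 for regulators and -0.17 for all genes. Kif23 (-2.80) had the largest difference, and Ttk (-0.64) was the mitosis member under 2-fold. The wider lists had 44 of 51 mitosis and 20 of 33 replication genes lower, and Pttg1 was again higher (32.3 against 13.7 TPM). Beside this, the epithelial sum was 8474.2 TPM in the switched-to-vehicle and 447.1 TPM in the combination library, and the skeletal muscle sum 2622.3 and 65556.6 TPM, and their part was not tested. Against the DC101 library the combination had 37 members at least 2-fold lower, beside 14.3% of all genes lower and 11.1% higher, with medians of -1.77 for mitosis and -1.34 for replication.

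The combination and 4H2 libraries differed in mitosis more than in replication. At least 2-fold higher in the combination library were 17 of 26 mitosis members, 0 of 12 replication members and 0 of 5 regulators, beside 4.94% of all genes higher and 0.464% lower. The medians were 1.18, 0.67 and 0.19, and 0.06 for all genes. Ccnb1 (7.9 against 1.0 TPM) and Cdk1 (7.4 against 1.0 TPM) had the largest differences, 2.15 and 2.07, followed by Ttk (4.6 against 0.5 TPM), at 1.90. Bub1b (0.58) and Aurka (0.63) had the smallest among mitosis members. The replication members ranged from 0.45 for Mcm3 to 0.97 for Cdc6, just under the threshold, and at a 1.5-fold threshold 35 members were higher. The counts rest on the pseudocount: with 0.1 in place of 1, 22 members were 2-fold higher, and with 5, 4 were. The share of all genes was not computed at these other settings. In plain TPM Cdc6 was 2.69-fold, Cdc45 2.21-fold and Mcm5 2.01-fold higher. In the wider lists 14 of 51 mitosis genes and 5 of 33 replication genes were higher, led by Cks2 (15.1 against 3.4 TPM) and Chaf1b (12.6 against 3.5 TPM). The other 4 replication genes were Prim1, Pole, Chaf1a and Clspn. The epithelial sum was 447.1 TPM in the combination and 55.7 TPM in the 4H2 library, and the skin and hair keratinocyte sum 446 and 14.9 TPM. Whether these cells carried the higher cycle transcripts was not tested.

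Mitosis and replication were also set against each other within each library, where the ratio of 2 sums does not depend on the library's scaling. The 26 mitosis members summed to 2392 TPM in the day 3 vehicle library, 488.7 and 407.7 TPM on gefitinib, 1514.8 TPM after the switch to vehicle, 1406.1 TPM after DC101, 158.7 TPM after 4H2 and 370.9 TPM after the combination. The 12 replication members summed to 1230.3, 475.6, 429.9, 866.8, 907.2, 225.2 and 364.8 TPM. The ratio of the mitosis to the replication sum was 1.94 in the day 3 vehicle library, 1.03 and 0.948 on gefitinib, 1.75 after the switch, 1.55 after DC101, 0.705 after 4H2 and 1.02 after the combination. The libraries thus fell into a higher set of 3 (day 3 vehicle, switched-to-vehicle and DC101) and a lower set of 4. Relative to the day 3 vehicle library the ratio was 0.529 and 0.488 on gefitinib, 0.899 after the switch, 0.797 after DC101, 0.362 after 4H2 and 0.523 after the combination. The ratio's own value has no fixed meaning, since it depends on which genes are summed, but its order between libraries can be compared. Each of these 6 relative values stayed under 1 with geometric means, with Mcm2 to Mcm7, Pcna and Rrm2 as the replication genes, without Pcna and without Ube2c. Within a comparison, the mitosis median lay under the replication median by 0.51 on day 3 and 0.62 on day 14 of gefitinib and by 0.93 after 4H2, and above it by 0.68 after the switch. The cells in the libraries also differed. The epithelial sum ranged from 55.7 TPM after 4H2 to 8474.2 TPM after the switch. The macrophage sum was 2160.8 TPM in the day 3 vehicle library and 19036.3 and 20124.5 TPM on gefitinib. Their part in the order of the ratios was not tested.

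**Figure D4:**
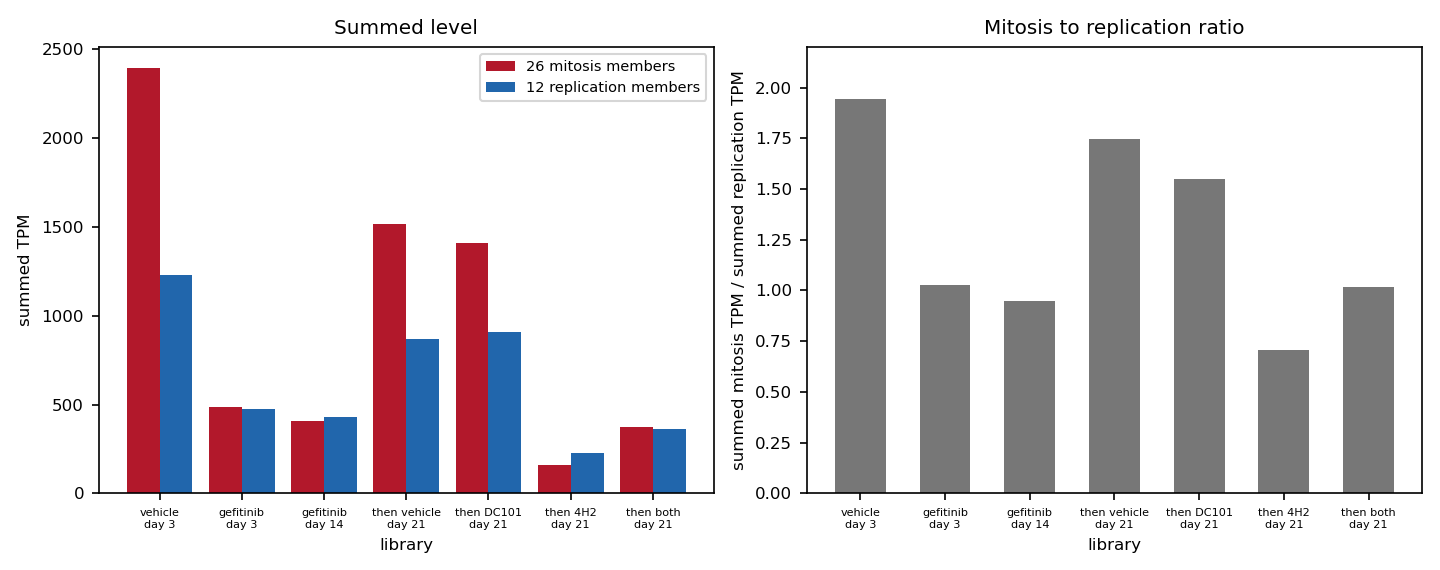
Summed TPM of the 26 mitosis members (red) and 12 replication members (blue) in each library (left), and the ratio of the 2 sums (right, grey bars from 0). The red bar is about level with the blue one on gefitinib and after the combination, lower than it after 4H2, and higher in the other 3 libraries.

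The differences of mitosis members with and without a CHR match overlapped, and whether the element bears on them was not tested. Between the 4H2 and switched-to-vehicle libraries the 17 mitosis members with a CHR had a median of -2.85 (-4.09 to -2.05). The 5 without one had a median of -2.96 (-4.20 to -2.87). On day 3 of gefitinib the medians were -2.13 and -2.33. Among replication members, the 5 with an E2F word had a median of -2.37 after 4H2 and the 5 without one a median of -2.04, with overlapping ranges, and on day 3 of gefitinib the medians were -1.73 and -1.74. Ccnb1, which had the lowest log2 difference of all members between the 4H2 and switched-to-vehicle libraries, held 2 CCAAT boxes and no CHR in its listed promoter.

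The members were last set against Krt8, a keratin of simple epithelia, as a measure of the epithelial part of each tumor. Krt8 itself stood at 478.8 TPM with vehicle at day 3, 189.9 and 341.1 TPM on gefitinib, 1731.3 TPM after the switch to vehicle, 1024.2 TPM after DC101, 6.6 TPM after 4H2 and 72.7 TPM after the combination. With the day 3 vehicle library set to 1, the median mitosis member per Krt8 was at 0.516 and 0.242 on gefitinib, 0.180 after the switch, 0.277 after DC101, 4.60 after 4H2 and 1.07 after the combination. The median replication member was at 0.744, 0.383, 0.198, 0.339, 10.4 and 1.67. Per Krt8 the switched-to-vehicle library was thus the lowest of the 7 and the 4H2 library the highest, although the 4H2 library was the lowest of the 7 in TPM. In the 4H2 library every mitosis and replication member was above its day 3 vehicle ratio. This follows from Krt8 itself, which fell by more than any member between these libraries, to 6.6 TPM. How many of all genes would also lie above was not computed, and the ratio says little where Krt8 is that low. The median replication member there stood at 230% of Krt8, against 21.3% in the day 3 vehicle library.

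The reference gene decided much of this. Epcam, an epithelial adhesion molecule, was at 571.2, 80.9, 101.8, 332.3, 406.7, 3.0 and 20.8 TPM. Per Epcam the median mitosis member was at 1.45 and 0.968 on gefitinib, 1.12 after the switch, 0.832 after DC101, 12.1 after 4H2 and 4.48 after the combination, and the median replication member was at 2.08, 1.53, 1.23, 1.02, 27.2 and 6.95. On day 3 of gefitinib 25 of 26 mitosis members were below their vehicle ratio per Krt8, while 23 of 26 were above it per Epcam. Per the sum of 14 epithelial markers the mitosis values were 0.661, 0.332, 0.346, 0.470, 5.11 and 1.64, and the replication values 0.952, 0.526, 0.378, 0.574, 11.5 and 2.54. Under all 3 references the 4H2 and combination libraries were above 1 in both classes. All 3 references were themselves lowest in these libraries, so any gene that fell less than its reference lies above 1 there. The 3 references fell together and are not separate checks, and no conclusion on cycling per epithelial cell is drawn. Cycle transcripts of cells other than epithelium enter these ratios, and how much they added was not tested.

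**Figure D5:**
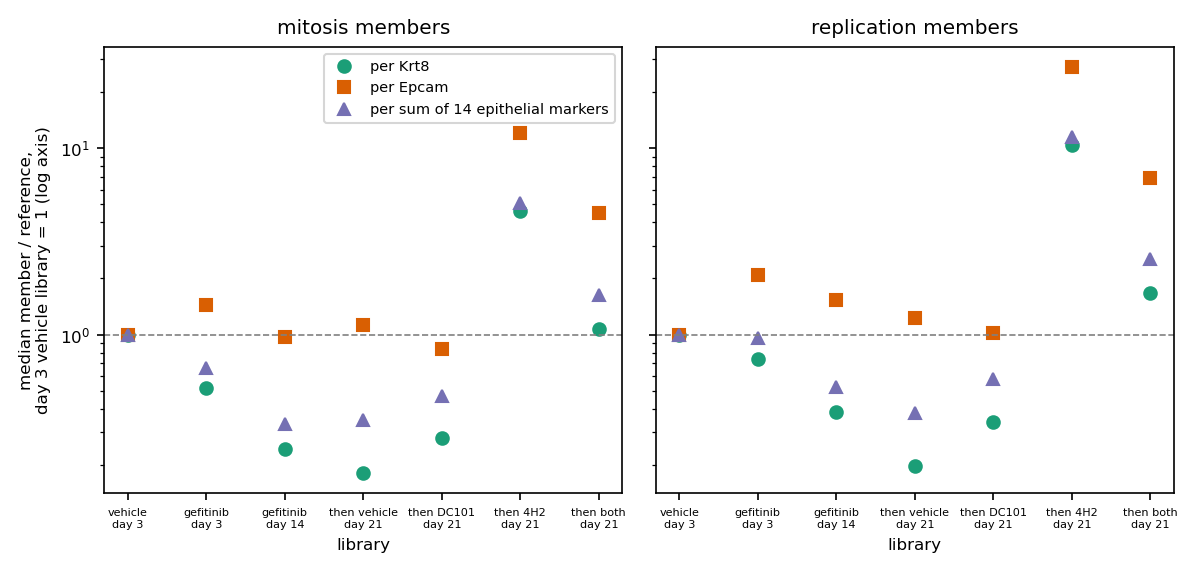
Median member divided by Krt8 (green circles), Epcam (orange squares) or the sum of 14 epithelial markers (purple triangles), relative to the day 3 vehicle library (log axis, dashed line at 1), for mitosis members (left) and replication members (right) in the 7 libraries. On gefitinib and after the switch the green circles lie under the line and most orange squares above it. All 3 references put the 4H2 library highest, where each reference is itself at its lowest.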

How the data were processed

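RNA was measured in 7 mouse tumor libraries, 1 per group. Per the labels' protocols, RNA from frozen tissue was depleted of ribosomal RNA and made into directional libraries. The authors deposited TPM, a length-normalized abundance, for 21892 gene symbols, to 1 decimal, on build GRCm38.p6 per the submitters' processing notes. Which aligner, counter and annotation they used is not given in these sources. No depth can be read from TPM, so no counting error can be given, and a value of 0 is only a listed 0, since all 13 mitochondrial protein genes are listed at 0 in every library.

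From these values log2 of the ratio of TPM + 1 was computed over the 13997 genes with a mean of at least 1 TPM, and differences of at least 2-fold were counted, with Python 3.11.15, pandas 2.3.3 and numpy 2.4.6. The counting was tested on simulated data. With 1 library per group no test, error or p-value was computed. Other pseudocounts, filters, thresholds, scalings and references were tried as alternatives. Promoter words were counted over any listed RefSeq promoter of a gene.

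The members, wider lists (33 replication, 51 mitosis, 23 regulator and 12 p53 response genes) and markers were chosen with earlier results of these data known. Values in all 7 libraries are printed for a list of members fixed by name, and the other members are given by their range. From each wider list the 2 highest and 2 lowest differences among genes with at least 10 TPM in either library could be named, and Krt8, Epcam and the marker sums are given. Nkx2-1, genes that complete a count of 5 or fewer, and the ratios between single genes were added after values were seen. For 3 wider genes the older symbol of the file was used.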

Additional observations from a re-analysis of the deposited data

Results flagged for a closer look

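DC101 had opposite signs alone and beside 4H2, in 2 comparisons that share no library (DC101 against the switched-to-vehicle library, and the combination against 4H2); the difference between them was not tested, since each rests on 2 libraries. The median mitosis member was at -0.11 with DC101 alone and at 1.18 when DC101 was added to 4H2, and the median replication member at -0.00 and 0.67. The sign of that -0.00 is not settled, since other scalings or the mean put it between 0.01 and 0.04, and 6 of 12 replication members had opposite signs, beside 47.8% of all genes. Beside 4H2 the log2 differences were 2.07 for Cdk1, 2.15 for Ccnb1, 1.29 for Ccnb2, 1.21 for Ccna2, 1.03 for Aurkb, 1.17 for Cdc20, 1.23 for Plk1, 1.04 for Kif11, 1.40 for Kif20a, 1.29 for Kif23, 1.19 for Kif2c, 1.22 for Cenpe, 1.15 for Tpx2 and 1.57 for Ube2c, while each of these 14 genes was lower with DC101 alone, between -0.40 for Ccnb1 and -0.03 for Cdk1 and Ccnb2. These 14 were picked for opposite signs and a difference of at least 2-fold in either comparison, and how many of all genes meet that rule was not computed. With DC101 alone the median of all genes was -0.05, so the signs of the smallest of these values are not settled either. In all, 29 of the 43 members were lower with DC101 alone and higher beside 4H2, as were 32.7% of all genes with a mean of at least 1 TPM. The T and NK cell sum was 577.5 TPM in the combination and 737.8 TPM in the 4H2 library, the epithelial sum 447.1 and 55.7 TPM, and their part in the result was not tested.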

How the results depend on the processing

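The counts of members and class medians kept their direction, and stayed within 1.5 times, without the filter, with a mean of at least 5 TPM, a pseudocount of 0.1, median-of-ratios scaling (factors 0.897 to 1.07), scaling without abundant genes, and means in place of medians. The exception is the replication median for DC101 alone, -0.00, which was 0.04 with median-of-ratios scaling, 0.02 without abundant genes and 0.01 as a mean. At a 1.5-fold threshold 4 members were lower on day 14 than on day 3 of gefitinib; 1 was higher and 18 lower in the switched-to-vehicle than in the day 3 vehicle library; 35 were higher in the combination than in the 4H2 library and 1 higher than in the DC101 library. With a pseudocount of 5, 1 member was lower in the switched-to-vehicle than in the day 3 vehicle library, 4 were higher in the combination than in the 4H2 library, and the mitosis median after 4H2 was -2.21. No share of all genes was computed at this pseudocount or at the 1.5-fold threshold, so these counts have no background beside them. As a ratio of geometric means, mitosis to replication was 0.940 in the day 3 vehicle, 0.607 and 0.547 in the gefitinib, 0.842 in the switched-to-vehicle, 0.776 in the DC101, 0.439 in the 4H2 and 0.598 in the combination library. Without Pcna, an alternative chosen after seeing the data, it was 1.58 on day 3 of gefitinib and 1.07 after 4H2, and without Ube2c, chosen likewise, no value moved by over 1.5 times. Per Epcam in place of Krt8 the mitosis values were 1.45, 0.968, 1.12, 0.832, 12.1 and 4.48, and the replication values 2.08, 1.53, 1.23, 1.02, 27.2 and 6.95, from day 3 of gefitinib to the combination. Per the sum of 14 epithelial markers, values over 1.5 times away were 0.346, 0.470 and 1.64 for mitosis and 0.378, 0.574 and 2.54 for replication, in the switched-to-vehicle, DC101 and combination libraries. These 2 changes follow from the levels of the reference genes; the cause of the others was not tested. No paired analysis was possible because each group is 1 library, and none could be left out for the same reason. Depth is unknown, and Cdk1 and Ccnb1 at 1.0 TPM after 4H2 lie near the smallest listed value, 0.1.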
